A study of Mus musculus with 6 samples.

Results

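The genes described here are 9 writers, erasers and readers of DNA methylation, chosen by name and matched by symbol to the Ensembl identifiers of a hippocampal gene count table. All 9 were found among the 48795 identifiers of the table, and all 9 passed the filter on low counts that left 16861 genes for testing. They are the methyltransferase genes Dnmt1, Dnmt3a and Dnmt3b, the dioxygenase genes Tet1, Tet2 and Tet3, the maintenance cofactor Uhrf1 and the methyl-CpG binding genes Mbd1 and Mbd2.

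The study sequenced polyadenylated RNA from the hippocampus of mice on a C57BL/6J background. The knockout group (labelled ifKO) carried floxed alleles of Kdm1a and Kdm5c together with CreERT2 under the CamKIIα promoter, which drives the recombinase in principal neurons of the forebrain. Tamoxifen (TMX), which activates CreERT2, was given to both groups, WT and ifKO, at an age of 2 to 3 months, and in ifKO mice it removes exons 5 and 6 of Kdm1a and exons 11 and 12 of Kdm5c. The labels do not say whether WT mice carried the recombinase or the floxed alleles. As a check of the labels, Kdm5c measured 78.3, 82.8 and 77.2 CPM in WT and 74.3, 72.1 and 65.3 CPM in ifKO (counts scaled to library size), lower in each ifKO library but not past the threshold (adjusted p = 0.143, edgeR quasi-likelihood test), and whole-gene counts also take in exons that are not deleted. Kdm1a measured 75.2, 76.6 and 69.2 CPM in WT and 38.0, 37.6 and 40.0 CPM in ifKO (adjusted p = 4.32e-07 in the same test). Each group had 3 libraries. The labels do not say that these are separate animals, and the p-values then reflect no more than library-to-library spread, which may be technical. With no group that lost 1 of the 2 genes, the share of each demethylase cannot be told apart. The promoter is not aimed at glia or interneurons, so the libraries mix targeted and other cells, and fewer cells of a type and less RNA per cell cannot be told apart.

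DNA methylation places a methyl group on cytosine, mostly where it is followed by guanine (CpG). DNMT3A and DNMT3B set new marks, DNMT1 copies them after replication with the help of UHRF1, the TET enzymes oxidise them as a first step of removal, and MBD proteins bind them and recruit repressors. Methylation of lysine 4 on histone H3, the substrate of KDM1A and KDM5C, keeps the DNMT3 enzymes from unmethylated CpG-rich promoters, and adult neurons are known for high levels of DNMT3A. The comparison shows whether transcripts of this machinery differ once both histone demethylases are lost from forebrain neurons.

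The start regions of these genes differ widely in CpG content, and the sequences below are examples from 2 of the 9 and from 2 listed genes that rose. RefSeq windows (GRCm38.p6) of 250 bases before a transcript start were found for 7 of the 9 genes, 12 windows in all. These windows held 2 to 51 CpG, and 11 of the 12 held more than 6, the median over 32841 such windows. Dnmt1 and Dnmt3a are shown because their values come nearest to a difference, Zfp57 because it was the reader outside the 9 that rose, and Meioc because it was the germline gene that rose. Each sequence runs 5′ to 3′ along its gene and capitals mark CpG.
Dnmt1, farthest upstream start, chr9:20959889-20960138, minus strand: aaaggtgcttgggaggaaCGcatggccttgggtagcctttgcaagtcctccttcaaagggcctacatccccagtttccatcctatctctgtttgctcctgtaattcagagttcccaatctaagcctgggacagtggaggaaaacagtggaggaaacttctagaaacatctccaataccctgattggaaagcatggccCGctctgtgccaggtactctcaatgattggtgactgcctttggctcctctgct
Dnmt1, next start, chr9:20952980-20953229, minus strand: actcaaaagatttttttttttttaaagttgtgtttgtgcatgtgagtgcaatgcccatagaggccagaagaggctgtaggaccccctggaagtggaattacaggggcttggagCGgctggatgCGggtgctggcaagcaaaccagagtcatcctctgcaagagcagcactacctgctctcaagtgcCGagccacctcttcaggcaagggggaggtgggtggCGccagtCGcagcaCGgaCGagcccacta
Dnmt3a, farthest upstream start, chr12:3806730-3806979, plus strand: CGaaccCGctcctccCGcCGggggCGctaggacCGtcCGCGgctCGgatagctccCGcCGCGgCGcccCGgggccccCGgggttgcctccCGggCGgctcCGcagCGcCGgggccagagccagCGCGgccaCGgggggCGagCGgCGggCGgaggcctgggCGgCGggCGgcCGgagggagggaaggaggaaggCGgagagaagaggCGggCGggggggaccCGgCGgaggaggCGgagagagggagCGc
Zfp57, farthest upstream start, chr17:37000913-37001162, plus strand: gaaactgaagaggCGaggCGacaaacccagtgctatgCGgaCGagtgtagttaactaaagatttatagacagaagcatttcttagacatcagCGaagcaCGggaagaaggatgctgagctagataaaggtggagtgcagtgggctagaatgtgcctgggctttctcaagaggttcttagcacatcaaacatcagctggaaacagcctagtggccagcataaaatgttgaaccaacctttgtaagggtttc
Meioc, chr11:102665335-102665584, plus strand: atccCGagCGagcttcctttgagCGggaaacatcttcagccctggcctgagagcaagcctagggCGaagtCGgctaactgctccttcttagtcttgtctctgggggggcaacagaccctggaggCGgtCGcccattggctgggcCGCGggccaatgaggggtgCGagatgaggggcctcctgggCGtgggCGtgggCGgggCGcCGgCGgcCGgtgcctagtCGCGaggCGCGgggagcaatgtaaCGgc

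The 2 Dnmt1 windows held 2 and 7 CpG, the Dnmt3a window 38, the Zfp57 window 6 and the Meioc window 22. The letters TCCCGC, the core of E2F family sites, were searched on both strands. They were found in 5 of the 12 windows of the 9 genes, against 16.9% of all windows of this length. That share was not matched for CpG content. Among listed genes that rose, they were in the single windows of Meioc and Birc5 and in 1 of the 2 of Grb10. For Zfp57 they were in 1 of the 3, not the one shown. The single windows of Mcm5 and Nr4a2, which fell, also held them. Dnmt1, Dnmt3a and Zfp57 each have 3 listed starts, the remaining Dnmt1 window holding 26 CpG, and gene counts cannot tell their transcripts apart.

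None of the 9 genes rose or fell. By the quasi-likelihood test of edgeR, with p-values adjusted by Benjamini-Hochberg over all tested genes and a threshold of 0.05, 0 rose and 0 fell. Of all tested genes 6.95% were called, 5.9% as higher and 1.05% as lower in ifKO. At an unadjusted p under 0.05 the count was 2 of 9, against 20.2% of all tested genes, and DESeq2 and limma-voom also called 0 of the 9. The median log2 fold change (ifKO over WT) of the 9 was -0.02, against -0.01 over all tested genes, and 5 of the 9 had a fold change smaller in size than the median size over all tested genes, which was 0.12 on the log2 scale. The libraries of the groups did not overlap for 1 gene that was higher in ifKO, Dnmt3a, and 1 that was lower, Dnmt1. Such separation held for 14% of tested genes in the higher direction and 11.2% in the lower, 25.2% in all.

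**Figure D1:**
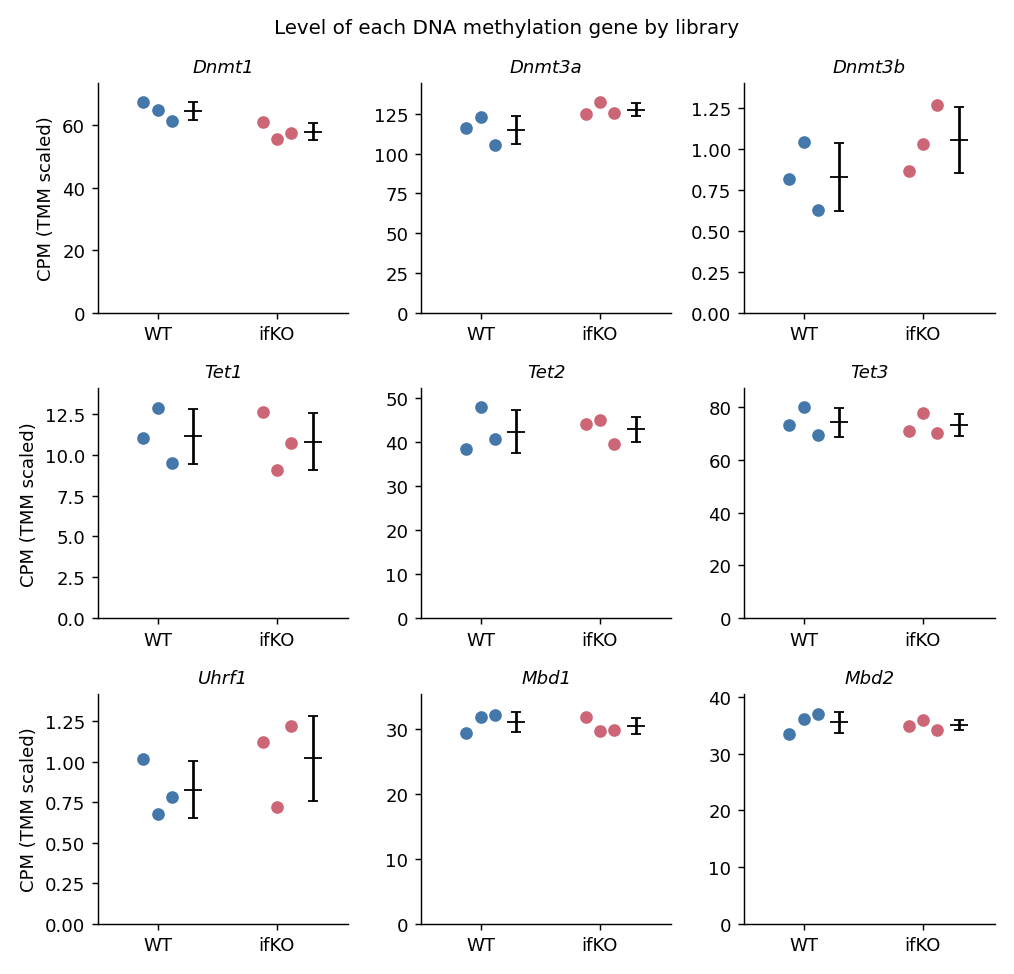
Level of each gene in CPM (TMM scaled, vertical axes from 0) in the 3 WT and 3 ifKO libraries, 1 point per library, with mean and SD beside them. The groups overlap in 7 of the 9 panels and are apart for Dnmt1 (WT 61.5 to 67.5, ifKO 55.5 to 61.0) and Dnmt3a (WT 105 to 123, ifKO 125 to 133).

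Among the writers, Dnmt3a (ENSMUSG00000020661, chromosome 12, 3806007 to 3914443, plus strand, GRCm38) had the most counts. Levels are in CPM, counts scaled to the size of the library. Dnmt3a measured 116, 123 and 105 CPM in WT replicates 1, 2 and 3 and 125, 133 and 125 CPM in ifKO replicates 1, 2 and 3. Every ifKO library lay above every WT library, the nearest pair being WT replicate 2 and ifKO replicate 1. The means were 115 ± 8.93 and 128 ± 4.25 CPM (SD, n = 3 each). The difference of 11.2% (95% interval 0.634 to 22.8%, log2 fold change 0.15, SE 0.0668) did not pass (adjusted p = 0.214, edgeR quasi-likelihood test). An annotated antisense gene, Dnmt3aos, shares 133 bases (0.8%) of the Dnmt3a exons, and the strand setting of the counting is not given in the sources used here.

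Dnmt1 (ENSMUSG00000004099, chromosome 9, 20907209 to 20959888, minus strand) lay on the other side. Dnmt1 measured 67.5, 64.8 and 61.5 CPM in the 3 WT libraries and 61.0, 55.5 and 57.4 CPM in the 3 ifKO libraries. The groups did not overlap, but WT replicate 3 and ifKO replicate 1 were almost level. The means were 64.6 ± 2.99 and 58.0 ± 2.81 CPM, a log2 fold change of -0.16 (SE 0.0639, adjusted p = 0.184 in edgeR's quasi-likelihood test). In percent the change was -10.2 (95% interval -18.4 to -1.26). The intervals of Dnmt1 and Dnmt3a leave out 0 because they are not adjusted for the number of genes tested.

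Dnmt3b (ENSMUSG00000027478, chromosome 2, 153649450 to 153687730, plus strand), the methyltransferase best known from early embryos, was scarce. It had 16, 20 and 12 counts in WT and 17, 20 and 25 counts in ifKO. The groups overlapped at 0.828 ± 0.210 and 1.06 ± 0.202 CPM, with a 95% interval of -18.1 to 97.7% for the difference (adjusted p = 0.561, edgeR quasi-likelihood test). The interval of Dnmt3b thus takes in both a small decrease and a rise of nearly 2-fold. Summed over the 3 methyltransferase genes, the level was 180 ± 11.3 CPM in WT and 187 ± 2.55 CPM in ifKO.

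Uhrf1 (ENSMUSG00000001228, chromosome 17, 56303321 to 56323486, plus strand), which recognises hemimethylated DNA behind the replication fork and brings DNMT1 to it, was as scarce as Dnmt3b. Counts of Uhrf1 were 20, 13 and 15 in WT and 22, 14 and 24 in ifKO. Its means of 0.826 ± 0.175 and 1.02 ± 0.263 CPM overlapped, with an interval from -21.6 to 93.7% (adjusted p = 0.635, edgeR quasi-likelihood test).

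The erasers were nearly level between the groups. Tet3 (ENSMUSG00000034832, chromosome 6, 83362373 to 83459084, minus strand), the TET gene with the most counts, measured 73.1, 80.2 and 69.5 CPM in WT and 71.1, 78.0 and 70.3 CPM in ifKO. All 3 ifKO values of Tet3 lay within the WT range, and the interval of the difference was -11.1 to 9.01% (adjusted p = 0.894, edgeR quasi-likelihood test). Tet2 (ENSMUSG00000040943, chromosome 3, 133463679 to 133545139, minus strand) measured 38.5, 47.8 and 40.8 CPM in WT and 44.1, 44.9 and 39.5 CPM in ifKO. Its ifKO values also lay inside the WT range, with an interval of -11.0 to 15.0% (adjusted p = 0.940, edgeR quasi-likelihood test). Tet1 (ENSMUSG00000047146, chromosome 10, 62804570 to 62908996, minus strand) measured 11.0, 12.9 and 9.52 CPM in WT and 12.6, 9.07 and 10.8 CPM in ifKO. The spread of Tet1 within a group was wider than that of the other TET genes, with a coefficient of variation of 15.0% in WT and 16.3% in ifKO, and its interval was -21.0 to 19.4% (adjusted p = 0.904, edgeR quasi-likelihood test). Together the 3 TET genes summed to 128 ± 11.5 CPM in WT and 127 ± 5.76 CPM in ifKO.

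The readers varied little. Mbd1 (ENSMUSG00000024561, chromosome 18, 74267605 to 74282732, plus strand), a methyl-CpG binding repressor of neural progenitors, measured 29.4, 31.9 and 32.3 CPM in WT and 31.9, 29.7 and 30.0 CPM in ifKO. Mbd2 (ENSMUSG00000024513, chromosome 18, 70568189 to 70626131, plus strand), which carries the NuRD remodelling and deacetylase complex to methylated DNA, measured 33.4, 36.1 and 37.0 CPM in WT and 34.9, 36.0 and 34.2 CPM in ifKO. Groups overlapped for both genes. The intervals were -12.4 to 9.38% for Mbd1 and -11.3 to 9.53% for Mbd2, with adjusted p of 0.866 and 0.909 in edgeR's quasi-likelihood test.

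**Figure D2:**
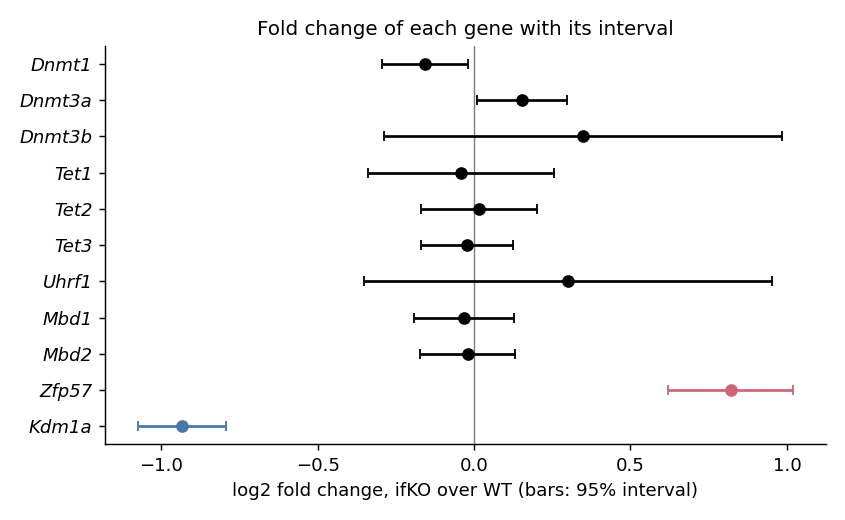
Log2 fold change of ifKO over WT (horizontal axis) with its 95% interval for the 9 genes, and for Zfp57 and the deleted Kdm1a for scale. The wide bars belong to Dnmt3b and Uhrf1, whose counts were 12 to 25 per library, and the other 7 intervals lie inside a 1.5-fold change either way.

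The intervals set how large a change these libraries leave room for. They lay inside a 1.25-fold change in either direction for 6 of the 9 genes (Dnmt1, Dnmt3a, Tet2, Tet3, Mbd1 and Mbd2), inside 1.5-fold for 7, with Tet1 added, and inside 2-fold for all 9. These are changes of whole-hippocampus RNA, in which a change in principal neurons would be diluted by transcripts of other cells. For scale, the deleted gene Kdm1a went from 69.2 to 76.6 CPM in WT to 37.6 to 40.0 CPM in ifKO (log2 fold change -0.93, SE 0.0651). The other deleted gene, Kdm5c, had a log2 fold change of -0.17 (SE 0.0640). Whole-gene counts also take in exons that are not deleted, so neither value measures that dilution.

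Per kilobase of annotated exon, a scale on which genes can be compared, the order of levels was Mbd2, Dnmt1, Dnmt3a, Mbd1, Tet3, Tet2, Tet1, Uhrf1 and Dnmt3b. Mbd2 lay between 10.4 and 11.5 CPM per kilobase over the 6 libraries, above all others. Dnmt1 (7.52 to 9.15) and Dnmt3a (6.33 to 7.97) overlapped in that range, as did Mbd1 (4.39 to 4.81) with Tet3 (4.16 to 4.80). Tet2 followed at 2.28 to 2.84 CPM per kilobase and Tet1 at 0.587 to 0.831, each apart from its neighbours. Uhrf1 (0.159 to 0.286) and Dnmt3b (0.122 to 0.248) overlapped at the bottom. In WT the level of Dnmt1 per kilobase, 8.76, was above that of Dnmt3a, 6.91, and in ifKO they were 7.86 and 7.68. The lengths are unions of all annotated exons, so a gene with long rare exons is placed too low.

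**Figure D3:**
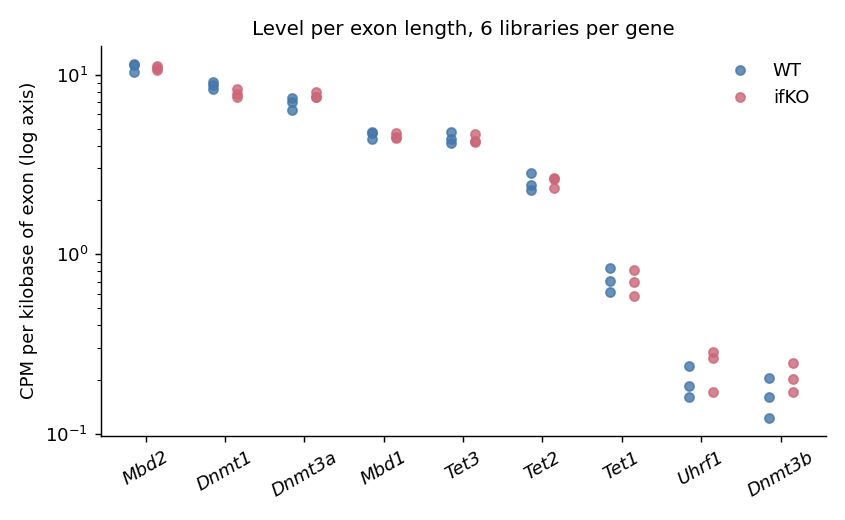
CPM per kilobase of exon (log axis) for the 9 genes in falling order, with 3 WT points and 3 ifKO points per gene. Mbd2 stands above 10, Uhrf1 and Dnmt3b below 0.3, and the pairs Dnmt1 with Dnmt3a and Mbd1 with Tet3 overlap.

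The tested genes outside the 9 whose log2 CPM ran closest to Dnmt1 over the 6 libraries were Zfp938 (Pearson's r of 0.993), Ankrd26 (0.992) and Phip (0.991). For Dnmt3a the closest were 4933439C10Rik (0.997), Gm12532 (0.995) and March10 (0.989). These genes were picked as the highest among 16861 tested genes, of which 99 exceeded 0.95 with Dnmt1 and 65 with Dnmt3a. Over 6 libraries, correlations picked in this way describe these libraries only.

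Depth was even, at 19309576 to 19700249 counts per library. Defining markers of hippocampal principal neurons were abundant, with Camk2a at 4284 to 4932 CPM in all 6 libraries, and 1 of 6 such markers fell, Neurod6 (log2 fold change -0.34), while all 6 had fold changes below 0 (median -0.09). Summed markers were higher in every ifKO library than in any WT library for oligodendrocytes (6 markers, 4941 to 5360 CPM in WT and 5501 to 6190 in ifKO, Mbp past the threshold) and astrocytes (6 markers, 1611 to 1840 and 1956 to 1981 CPM, Gfap past the threshold). Microglial sums overlapped narrowly (252.5 to 290.2 CPM in WT and 289 to 327 in ifKO). All 6 microglial markers were above 0 (median 0.21, against 0.19 for astrocytes). Of them 4 were at an unadjusted p under 0.05, against 20.2% of all tested genes, but none past the threshold in edgeR's quasi-likelihood test. All 4 markers of oligodendrocyte precursors (median 0.17) and all 4 of erythrocytes (median 0.53) were also above 0, with 2 of each at an unadjusted p under 0.05 in that test and overlapping sums. Sums overlapped too for interneurons, vascular cells and immature neurons. Of 5 tested immature neuron markers, 4 were above 0 (median 0.37), 2 were at an unadjusted p under 0.05 in edgeR's test, and Sox11 rose. Of 6 interneuron markers, 5 were below 0 (median -0.07) and 1 was at an unadjusted p under 0.05 in that test. All 4 vascular markers were above 0 (median 0.06), with 0 at an unadjusted p under 0.05 in that test. The choroid plexus markers summed to 28.2 to 43.1 CPM in WT and 57.5 to 120 in ifKO, where Kl, which neurons also express, rose. Of all tested genes 5.9% rose and 1.05% fell. Separate groups held for 14% of single tested genes in the higher direction and 11.2% in the lower, a share not computed for sums. The part of the marker shifts in the values of the 9 genes was not tested.

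None of the genes listed as partners of the writers and erasers passed the test, where 6.95% of all tested genes were called. Of 16 partners of the writers, 15 were tested and 0 rose or fell, with a median log2 fold change of -0.01. At an unadjusted p under 0.05 in edgeR's quasi-likelihood test there were 2 of the 15, against 20.2% of all tested genes. These 2 were Setdb1, a histone H3 lysine 9 methyltransferase (77.6 ± 3.36 to 68.2 ± 2.12 CPM, adjusted p = 0.0828 in that test), and Hells, a remodeller needed for methylation of repeats (2.89 ± 0.486 to 4.03 ± 1.14 CPM, adjusted p = 0.230 in that test). Dnmt3l, the catalytically inactive cofactor of the germline, had 16 counts over the WT libraries and 12 over the ifKO libraries and was not tested. Of 18 partners in demethylation and base excision repair, 17 were tested and 0 rose or fell, with a median of -0.02 and 1 at an unadjusted p under 0.05 in the edgeR test. The 2 with the smallest p were Cxxc5, a CXXC protein that binds TET2 (53.5 ± 4.85 to 62.7 ± 3.15 CPM, adjusted p = 0.0863 in the edgeR test), and Tdg, the glycosylase that excises oxidised methylcytosine (8.76 ± 0.681 to 10.3 ± 0.440 CPM, adjusted p = 0.253). For 367 bases (6.83%) the Tdg exons overlap those of an antisense gene, Glt8d2. Setdb1 passed the threshold without WT replicate 3 (adjusted p = 0.0439 in edgeR's test) and Cxxc5 without WT replicate 1 (0.0302).

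The 6 listed CXXC proteins that read unmethylated CpG all had log2 fold changes below 0. Among them were the H3K4 methyltransferase genes Kmt2a and Kmt2b and the demethylase genes Kdm2a and Kdm2b. Of the CXXC genes listed instead as demethylation partners, Cxxc4 was at -0.01 and Cxxc5 at 0.23. None of the 6 passed the test, where 6.95% of all tested genes were called. Their median was -0.13, against -0.01 over all tested genes. At an unadjusted p under 0.05 in edgeR's quasi-likelihood test there was 1 of the 6, against 20.2% of all tested genes. Cxxc1, which brings the SET1 methyltransferases to CpG islands, measured 55.6, 60.4 and 62.2 CPM in WT and 52.7, 52.9 and 51.6 CPM in ifKO (log2 fold change -0.18, adjusted p = 0.118 in edgeR's test). Every ifKO library of Cxxc1 lay below every WT library, as held for 11.2% of all tested genes. Fbxl19 went from 73.5 ± 3.09 to 66.9 ± 5.16 CPM (adjusted p = 0.292 in edgeR's test).

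Of 18 other readers and NuRD subunits, 1 rose, Zfp57, and 0 fell, where 5.9% of all tested genes rose and 1.05% fell. ZFP57 is a zinc finger protein that binds methylated imprinting control regions and keeps them methylated through TRIM28. Zfp57 (ENSMUSG00000036036, chromosome 17, 37001163 to 37010635, plus strand) measured 11.7, 13.7 and 11.7 CPM in WT and 22.2, 21.4 and 21.9 CPM in ifKO. The groups were far apart and the ifKO values nearly equal. The means were 12.4 ± 1.14 and 21.8 ± 0.376 CPM, a rise of 76.5% (95% interval 53.8 to 103%, log2 fold change 0.82, SE 0.0924, adjusted p = 4.59e-05 in edgeR's quasi-likelihood test). Its partner Trim28 was at 158 ± 6.496 and 162 ± 4.40 CPM (adjusted p = 0.777 in the same test). The median log2 fold change of the 18 was -0.003, and the 17 other than Zfp57 lay between -0.17 and 0.11. At an unadjusted p under 0.05 in the edgeR test there were 2 of the 18, against 20.2% of all tested genes.

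**Figure D4:**
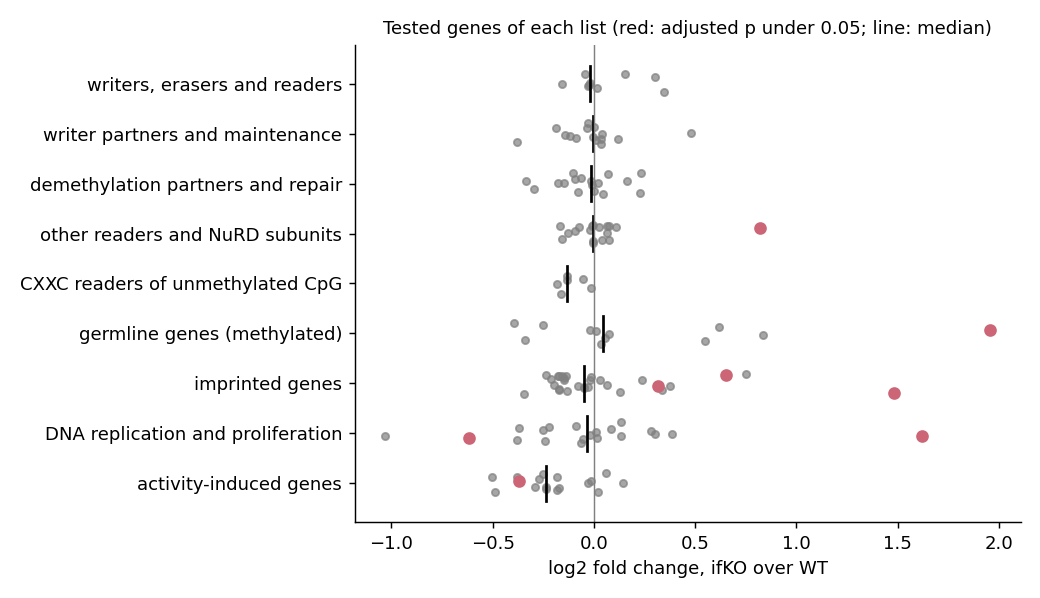
Log2 fold change of ifKO over WT (horizontal axis) for every tested gene of each list, 1 point per gene, with the list's median as a line and genes past the threshold in red. The medians of the writers, erasers and readers and of their partners lie near 0, with single genes from -0.38 to 0.48. Zfp57 (0.82), Meioc (1.96), Cdkn1c (1.48) and Birc5 (1.62) stand to the right, and the replication list reaches -1.03 on the left.

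Germline genes with promoters methylated in somatic cells are a classic target of this machinery. Of 32 listed, 12 were tested, 1 rose and 0 fell, where 5.9% of all tested genes rose and 1.05% fell. The median log2 fold change was 0.04. At an unadjusted p under 0.05 in edgeR's quasi-likelihood test there were 2 of the 12, against 20.2% of all tested genes. Several of the listed genes were expressed in WT, where the 12 ranged from 0.517 CPM (Tex14) to 37.5 CPM (Tdrkh). The 20 untested genes had at most 14 counts in any library, 122 over the WT libraries and 117 over the ifKO libraries, and 7 of them had no count anywhere. A gene silent in WT could enter the test only by being high in ifKO, so the 12 tested do not stand for the 32. Meioc (ENSMUSG00000051455, chromosome 11, 102663716 to 102682237, plus strand), which is required in meiotic prophase, measured 0.408, 0.522 and 0.677 CPM in WT and 1.78, 2.47 and 2.03 CPM in ifKO. Its groups did not overlap (log2 fold change 1.96, SE 0.279, adjusted p = 0.000415 in edgeR's quasi-likelihood test). Meioc reached the low-count filter's minimum in enough libraries only through ifKO, so its call depends on the group where it is high. Other genes of the list whose groups did not overlap, named after their values were seen, were Tdrd1, Ddx4, Mael and Smc1b. Such separation, in either direction, held for 25.2% of all tested genes. Tdrd1 was at 1.02, 1.04 and 0.937 CPM in WT and 2.40, 1.44 and 1.52 CPM in ifKO (log2 fold change 0.83, adjusted p = 0.0848 in edgeR's test). Ddx4 was at 5.61, 4.86 and 7.13 CPM in WT and 4.44, 4.84 and 4.62 CPM in ifKO (log2 fold change -0.34, adjusted p = 0.250 in that test). Mael and Smc1b were not tested, so the share of 25.2% does not cover them. Mael had 0, 0 and 1 counts in WT and 2, 2 and 10 in ifKO, most of them in ifKO replicate 3. Smc1b had 6, 5 and 5 counts in WT and 4, 2 and 4 in ifKO.

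Of 33 imprinted genes, expressed from a single parental copy under inherited methylation, 29 were tested, 3 rose and 0 fell, where 5.9% of all tested genes rose and 1.05% fell. The median log2 fold change was -0.05, with 19 of the 29 below 0. At an unadjusted p under 0.05 in edgeR's quasi-likelihood test there were 10 of the 29, against 20.2% of all tested genes. Of these 10, Cdkn1c, Grb10, Peg10, Igf2 and Sgce were higher in ifKO, and Snrpn (log2 fold change -0.17), Nnat (-0.35), Mirg (-0.21), Nap1l5 (-0.15) and Zrsr1 (-0.15) were lower, the last 5 and Sgce named after their values were seen. Cdkn1c, a cell cycle inhibitor, measured 1.94, 1.31 and 1.25 CPM in WT and 4.33, 3.14 and 5.12 CPM in ifKO (log2 fold change 1.48, SE 0.234, adjusted p = 0.00104 in edgeR's quasi-likelihood test). An antisense gene, Gm44732, shares 30.6% of the Cdkn1c exon bases. Grb10, an adaptor of insulin signalling, measured 48.4, 46.0 and 45.0 CPM in WT and 64.8, 53.2 and 55.5 CPM in ifKO (adjusted p = 0.0226 in that test). Peg10, a gene of retrotransposon origin, measured 18.7, 28.3 and 36.0 CPM in WT and 49.9, 40.0 and 40.5 CPM in ifKO (adjusted p = 0.0303 in that test). Groups were apart in all 3 genes, as held for 14% of tested genes in the higher direction.

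The choroid plexus marker Ttr varied between libraries, at 19.1, 5.96 and 7.23 CPM in WT and 58.9, 1.597 and 55.9 CPM in ifKO. Igf2, an imprinted gene named after its values were seen, was high in the same 2 ifKO libraries (29.0, 31.2 and 28.7 CPM in WT and 63.7, 27.1 and 58.4 CPM in ifKO, adjusted p = 0.0560 in edgeR's quasi-likelihood test). A setting added after the data were seen left out ifKO replicates 1 and 3. It keeps 1 ifKO library, too few to count calls, so only fold changes are given. The log2 fold changes were then 1.06 for Cdkn1c, 0.53 for Peg10 and 0.19 for Grb10. With all 6 libraries they were 1.48, 0.65 and 0.32. The part of choroid plexus RNA in the imprinted rises was not tested. Grb10 lost its call without WT replicate 2 (adjusted p = 0.0539 in edgeR's test), ifKO replicate 1 (0.126) or ifKO replicate 3 (0.0596). Peg10 lost its call in DESeq2 (adjusted p = 0.176). In edgeR it lost the call without WT replicate 1 (adjusted p = 0.0624), WT replicate 2 (0.0760), ifKO replicate 1 (0.123) or ifKO replicate 3 (0.0650).

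**Figure D5:**
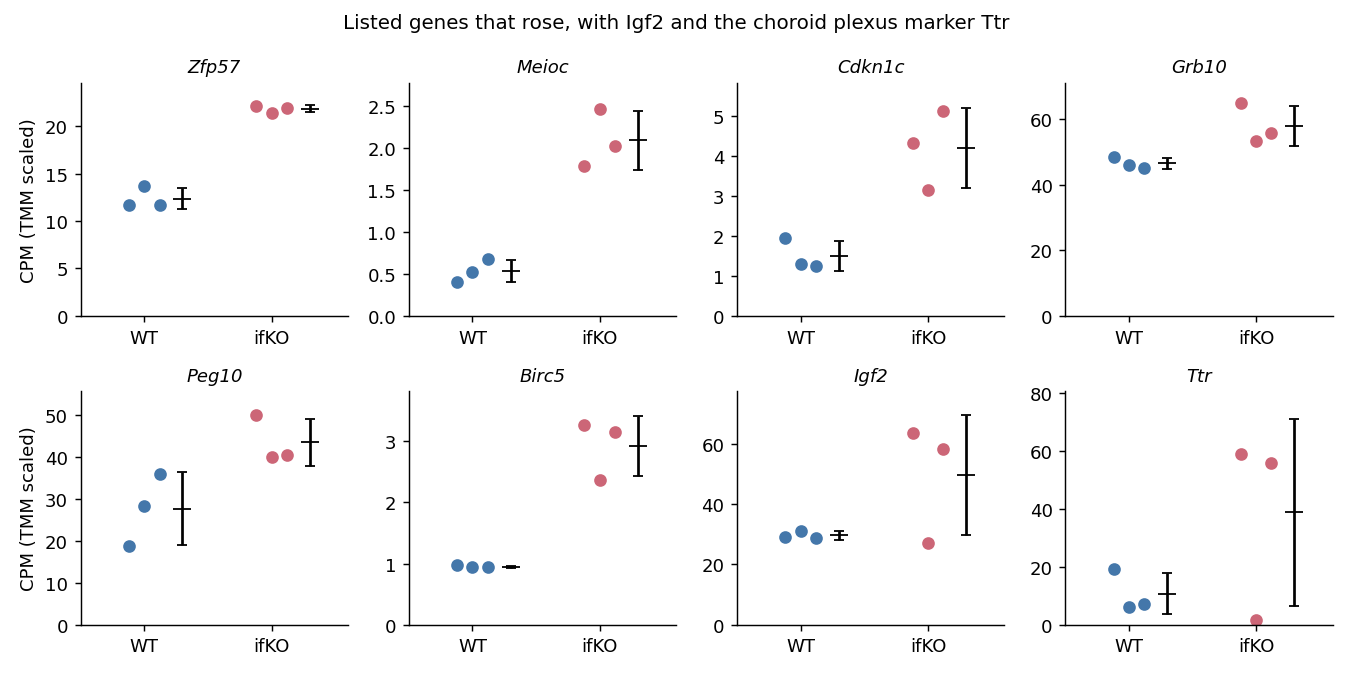
Level in CPM (vertical axes from 0) of 6 listed genes that rose and of Igf2 and Ttr in each library, with mean and SD beside the points. Zfp57, Meioc, Cdkn1c, Grb10, Peg10 and Birc5 show no overlap between groups, whereas Igf2 and Ttr overlap and are highest in ifKO replicates 1 and 3.

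DNMT1 and UHRF1 act at replication forks, and transcripts of replication were read beside them. Of 24 replication and proliferation genes, 20 were tested, 1 rose and 1 fell, where 5.9% of all tested genes rose and 1.05% fell. The median log2 fold change was -0.04. At an unadjusted p under 0.05 in edgeR's quasi-likelihood test there were 4 of the 20, against 20.2% of all tested genes. Birc5, an inhibitor of apoptosis that also guides chromosome segregation, measured 0.968, 0.940 and 0.937 CPM in WT and 3.26, 2.37 and 3.14 CPM in ifKO (log2 fold change 1.62, adjusted p = 0.000300 in edgeR's quasi-likelihood test). Mcm5, a subunit of the replicative helicase, measured 5.05, 4.81 and 4.79 CPM in WT and 3.72, 3.35 and 2.49 CPM in ifKO (log2 fold change -0.61, adjusted p = 0.0427 in that test). Mcm5 lost its call in DESeq2 (adjusted p = 0.0827) and in edgeR without any 1 of the WT libraries or ifKO replicate 2 or 3, with adjusted p up to 0.207 without ifKO replicate 3. Mki67, a marker of dividing cells, was at 2.52 ± 0.351 and 2.54 ± 0.365 CPM.

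Of 17 genes induced by neuronal activity, a state known to move Tet1 and Gadd45b transcripts, 0 rose and 1 fell. Of all tested genes 5.9% rose and 1.05% fell. The median log2 fold change of the 17 was -0.23, against -0.01 over all tested genes, and 14 of the 17 were below 0. At an unadjusted p under 0.05 in edgeR's quasi-likelihood test there were 4 of the 17, against 20.2% of all tested genes. Nr4a2, an orphan nuclear receptor, measured 90.1, 83.4 and 72.2 CPM in WT and 66.7, 67.8 and 55.8 CPM in ifKO (log2 fold change -0.37, adjusted p = 0.0205 in edgeR's quasi-likelihood test). Its groups were apart, as held for 11.2% of tested genes in the lower direction. The call of Nr4a2 was lost without WT replicate 1 (adjusted p = 0.101 in edgeR's test), WT replicate 2 (0.0590) or ifKO replicate 3 (0.148). Gadd45b was at 11.4 ± 1.92 and 11.4 ± 1.33 CPM.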

How the data were processed

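Polyadenylated hippocampal RNA of 3 WT and 3 ifKO libraries was analysed from 1 table of raw counts per gene deposited by the authors, not scaled by depth or length. As the submitters' processing notes give them, the tools were cutadapt 1.18, HISAT2 and HTSeq 0.11.1, on mouse build GRCm38 (mm10). Neither the annotation release nor the strand setting is given in the sources used here. Identifiers were matched to GENCODE M21 for symbols, coordinates and exon lengths, which left 360 of 48795 unmatched.

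Genes were filtered with filterByExpr (minimum count 10, minimum total 15) and scaled with TMM. Groups were compared with edgeR 4.0.16 (quasi-likelihood test, group as the only term, Benjamini-Hochberg adjustment over all 16861 tested genes, threshold 0.05) in R 4.3.3. Levels are TMM-scaled CPM with SD over 3 libraries, folds are ifKO over WT, and 95% intervals come from the SE of each fold and the test's degrees of freedom, unadjusted. With 3 against 3 libraries an exact permutation test cannot go below p = 0.1 and was not used.

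The 9 genes and the lists were chosen with earlier results of these data known. Named in each list were up to 4 genes past the threshold by adjusted p, or the 2 with the smallest p, and for the 2 of the 9 genes with the smallest p the 3 most correlated genes. Lists are described by counts and medians with no set test. Alternatives were DESeq2 1.42.0 and limma-voom (limma 3.58.1), scaling by RLE or by library size alone, no low-count filter or one of 1 CPM in 3 libraries, a replicate block, and each library left out in turn. Replicates differed by more than sampling noise, with chi-square per degree of freedom of 3.43 to 9.84 within groups.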

Additional observations from a re-analysis of the deposited data

How the results depend on the processing

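Across the alternatives run, 0 of the 9 genes rose or fell, and the smallest adjusted p any of them reached was 0.0901 (edgeR, without WT replicate 2). Log2 fold changes of Dnmt1, Dnmt3a, Dnmt3b, Uhrf1 and Mbd1 kept their sign under each alternative. Those near 0 changed sign on leaving out 1 library, with ranges of -0.17 to 0.073 (Tet1), -0.049 to 0.11 (Tet2), -0.072 to 0.035 (Tet3) and -0.063 to 0.0090 (Mbd2). Mbd2 was at 2.9e-05 with library size alone. Zfp57, Meioc and Birc5 kept their calls under these alternatives, with Zfp57 between 0.78 and 0.90. Cdkn1c did so too, but its log2 fold change went from 1.48 to 1.06 in the added setting that keeps 1 ifKO library. The filter of 1 CPM in 3 libraries let in Meioc and Birc5 only through their ifKO libraries.

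List counts on leaving out each library ranged from 0 to 1 for falls among writer partners and rises among demethylation partners, 1 to 4 for rises and 0 to 2 for falls of imprinted genes, 0 to 1 for falls in replication and 0 to 2 for falls of activity genes. Imprinted falls were 1 in DESeq2 and 1 with no filter, replication falls 0 in DESeq2, and activity falls 4 with no filter. All tested genes that fell numbered 177, 279 with no filter and 48 to 323 on leaving out 1 library (323 without WT replicate 3, 102, 67 and 48 without ifKO replicates 1, 2 and 3). The cause was not tested.

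The labels do not say whether same-numbered libraries were paired. Their deviations from group means correlated at 0.005, -0.009 and -0.02, and those of differently numbered libraries at -0.12 to 0.13. With 3 libraries per group such values cannot exclude a pairing. A replicate block left the 9 genes with 0 rises and 0 falls (smallest adjusted p 0.201 in edgeR). Depth limits Dnmt3b and Uhrf1 most, at 12 to 25 counts per library.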
